A study of Rattus norvegicus with 22 samples.

Results

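Matricellular proteins are secreted into the extracellular matrix but, unlike the collagens, do little to hold it together. They bind matrix fibres, growth factors and cell surface receptors, most often integrins, and thereby alter how cells attach, migrate and respond to signals. They are scarce in most resting adult tissues, and are produced in wounds and in the stroma of carcinomas, where transforming growth factor beta, the YAP and TAZ coactivators and mechanical load are known inducers. The genes described here are Postn, Spp1, Tnc, Thbs1, Thbs2, Sparc, Fn1, Ctgf and Cyr61. They were found by the gene name printed on the array, and 8 of the 9 were present, out of 19167 gene symbols. No probe carried the name Cyr61 or Ccn1, and that gene was not analysed here. Fibronectin (Fn1) differs from the rest in that it also builds fibres itself.

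The tissues were 11 pairs of oral squamous cell carcinoma (OSCC) and adjacent phenotypically normal tongue, each pair from 1 male F344 rat. By the protocol, all 11 rats drank water with 4-nitroquinoline-1-oxide (4-NQO) at 20 ppm for 10 weeks from an age of 7 to 9 weeks, and tissues were taken 23 to 26 weeks after the first exposure. The normal group was therefore exposed to the carcinogen as well. The labels differ on this point, since all sample titles hold the word untreated and the normal pieces are given no treatment. The labelled age was about 33 weeks, and no unexposed tongue was part of the comparison. RNA of each piece was measured on a one-color Agilent array. Values are log2 signals relative to the 75th percentile of the same array, so that 0 is the level of a probe at that percentile, and differences are OSCC minus normal in the same rat. A gene was called when limma's paired fit gave a Benjamini-Hochberg adjusted p below 0.05 over all probes and the change was at least 2-fold. Where a gene had several probes, the brightest over all arrays was used.

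Both tissues expressed markers of squamous epithelium on all arrays. None of the 7 epithelial markers was called, beside 7.48% of all symbols called higher and 7.24% lower. Their summed signal ranged from 392 to 927 in normal tissue and from 238 to 1027 in OSCC, in multiples of the array's 75th percentile. Single rats differed, with lowest differences of -4.33 for Krt14, -3.53 for Krt5 and -3.04 for Trp63. In the mean difference of these markers animal 24 stood apart from the other 10 rats, by a gap of 49.6% of the range. Scanning took 2 days. Day 1 held the 11 normal arrays with the OSCC arrays of animals 4 and 9, day 2 held the 9 remaining OSCC arrays, and no slide carried both tissues. The 75th percentile signal ran from 237 to 655 in normal tissue and from 339 to 1414 in OSCC, with 48.4% to 56.1% and 52.3% to 65.5% of probes well above background. The median gene differed by -0.21 between the tissues. In whole tissue, more cells of a type and more RNA per cell cannot be told apart.

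The 60-base probes that reported the called members are shown because each value below is the signal of that stretch of the transcript alone. They are written 5′ to 3′ as the array files give them, in lower case.
Postn: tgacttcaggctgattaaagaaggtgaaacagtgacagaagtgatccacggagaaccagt
Spp1: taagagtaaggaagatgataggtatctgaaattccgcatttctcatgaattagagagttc
Tnc: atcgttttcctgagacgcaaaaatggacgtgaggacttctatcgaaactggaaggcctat
Thbs1: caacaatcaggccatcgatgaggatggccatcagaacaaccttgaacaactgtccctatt
Thbs2: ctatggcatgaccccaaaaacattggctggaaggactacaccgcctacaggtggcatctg
Sparc: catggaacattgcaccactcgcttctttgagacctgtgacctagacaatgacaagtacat
In rat assembly rn4, which the array annotation uses, the Postn probe lay at chr2:143560792-143561828 on the plus strand. These 60 bases therefore fell on exons that an intron separates. The Spp1 probe lay at chr14:6422382-6422441, that of Thbs2 at chr1:53589151-53589210 and that of Sparc at chr10:40811473-40811532, all on the minus strand. The Tnc and Thbs1 probes were unmapped in that annotation. The Fn1 probes lay at chr9:70702316-70702375 and chr9:70745666-70745725 and the Ctgf probe at chr1:21327574-21327633, also on the minus strand. The annotation gave no exon for any of them.

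Of the 8 measured genes, 6 were higher in OSCC by the test and the fold, and none was lower. Across all 19167 symbols 7.48% were called higher and 7.24% lower. Postn and Spp1 rose to 27.6 and 27.5 times the normal level, Tnc to 12.0, Thbs2 to 11.2 and Sparc to 2.29 times. For Thbs1 only a lower limit of 2.22-fold can be given, with the background subtraction used here. With another background correction, normexp, the log2 differences of Postn, Spp1, Tnc and Thbs2 were 4.13, 3.52, 2.79 and 2.83 instead of 4.79, 4.78, 3.59 and 3.49. Ctgf passed the test but stayed under 2-fold, and the brightest Fn1 probe missed the threshold. The median measured difference of the 8 genes was 3.38 log2 units, 2.34 with Thbs1 at its limit and 1.98 with normexp, beside -0.21 for all symbols, and 82 of the 88 rat-by-gene differences were above 0.

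**Figure D1:**
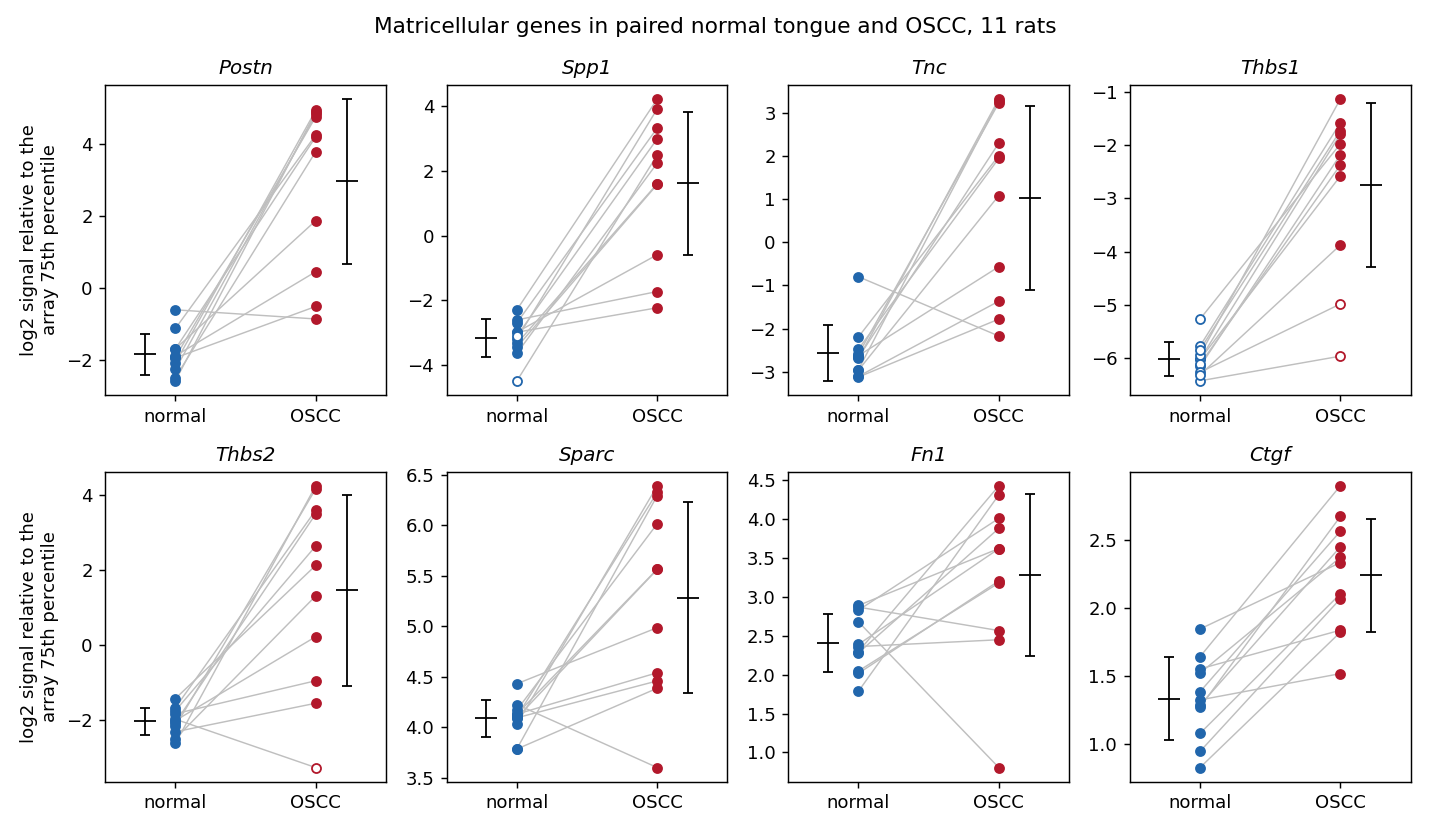
Log2 signal of the 8 genes relative to the array's 75th percentile (vertical axis, scaled separately for each gene) in normal tongue and OSCC of 11 rats; grey lines join the tissues of 1 rat, open circles are not well above background, and black bars give mean and SD (n = 11). Spp1 is the gene whose tissues do not overlap, with the highest normal value at -2.29 and the lowest OSCC value at -2.23.

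Postn encodes periostin, a fasciclin-domain protein that binds collagen and integrins and supports collagen fibre assembly. In normal tissue its log2 level ran from -2.57 to -0.60 with a median of -1.91, and in OSCC from -0.85 to 4.92 with a median of 4.19. Animal 24 accounts for the overlap, since it held both the highest normal and the lowest OSCC value. The mean difference was 4.79 log2 units (SE 0.71, n = 11 pairs, limma adjusted p = 0.00055), and Postn was higher in the OSCC of 10 of 11 rats. It was lower by 0.25 in animal 24 and higher by 7.43 in animal 11.

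Spp1 encodes osteopontin, a phosphorylated glycoprotein that binds integrins and CD44 and is made by macrophages, bone cells and many carcinomas. Its probe was printed as 10 spots on each array. The log2 level was -4.49 to -2.29 in normal tissue (median -3.10, well above background on 9 of 11 arrays) and -2.23 to 4.23 in OSCC (median 2.25, on all 11). Every OSCC array thus lay above every normal array. Such a separation was seen in this direction in 1 of the 8 genes and in 0.694% of all symbols. The difference was 4.78 (SE 0.63, adjusted p = 0.00036), with single rats between 0.76 and 7.11.

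Tnc encodes tenascin-C, a hexameric protein that weakens adhesion to fibronectin. Normal levels ran from -3.12 to -0.80 (median -2.67) and OSCC levels from -2.17 to 3.32 (median 1.94). The highest normal value was again that of animal 24, whose OSCC value was the lowest of the tumors. The difference was 3.59 (SE 0.64, adjusted p = 0.0014), with OSCC higher in 10 of 11 rats and lower by 1.37 in animal 24.

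The thrombospondins Thbs1 and Thbs2 encode trimeric proteins that inhibit angiogenesis through CD36 and bind CD47, and thrombospondin-1 also activates latent transforming growth factor beta. No normal array had Thbs1 well above background, as against 9 of 11 OSCC arrays. Its log2 signals were -6.43 to -5.27 in normal tissue (median -6.02) and -5.96 to -1.14 in OSCC (median -2.18). Only a lower limit of the change can be given, because the normal signal is itself a bound. With the background subtraction used here, Thbs1 was at least 2.22-fold higher in OSCC. This is set against the lowest signal that counted as well above background on each normal array. The measured signals differed by 3.27 log2 units (SE 0.37, adjusted p = 0.00018) and OSCC was higher in 11 of 11 rats. With normexp the difference was 0.82 (adjusted p = 0.032), under 2-fold and below that limit.

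Thbs2 had log2 levels of -2.62 to -1.42 in normal tissue, with a median of -2.01, and of -3.26 to 4.25 in OSCC, with a median of 2.13. The lowest of all 22 arrays was the OSCC of animal 17, where the probe was not well above background. Elsewhere OSCC was higher, in 10 of 11 rats. The mean difference was 3.49 (SE 0.70, adjusted p = 0.0026), from -1.29 in animal 17 to 6.86 in animal 11.

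Sparc encodes osteonectin, a collagen-binding glycoprotein abundant in fibroblasts. Its probe was bright in both tissues. Normal values fell within a narrow band of 3.78 to 4.43 (median 4.11) and OSCC values ran from 3.60 to 6.39 (median 5.56). The difference was 1.20 (SE 0.28, adjusted p = 0.0062), or 2.29-fold, with OSCC higher in 10 of 11 rats and lower by 0.62 in animal 17. It was 0.99 after scaling to the array median, just under 2-fold, and adjusted p was 0.057 with normexp.

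Fn1 was read by 2 probes, 1 bright and 1 dim. The bright probe had a median of 2.36 in normal tissue, between 1.79 and 2.89, and of 3.62 in OSCC, between 0.81 and 4.42. Its difference was 0.87 (SE 0.34, adjusted p = 0.0502), with OSCC higher in 9 of 11 rats. Animal 17 was the exception in size, lower by 1.87, and without it the difference was 1.15 (adjusted p = 0.0051). For the second, dim probe no normal array and 8 OSCC arrays were well above background, and the change was at least 2.40-fold. It differed by 2.03 (SE 0.35, adjusted p = 0.0011). Since its normal signals are bounds, the sizes of change on the bright and the dim probe cannot be set against each other further.

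Ctgf encodes connective tissue growth factor, a member of the CCN family and a well-known target of YAP and TAZ. Its log2 level was 0.83 to 1.84 in normal tissue (median 1.32) and 1.52 to 2.90 in OSCC (median 2.33), and the ranges overlapped. The difference was small and even, at 0.90 (SE 0.13, adjusted p = 0.00057), or 1.87-fold. OSCC was higher in 11 of 11 rats, by 0.19 to 1.40.

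The scan day touches every one of these values. In animals 4 and 9, whose tissues were scanned on the same day, all 6 called genes were higher in OSCC in both rats. The means of those 2 rats were 5.80 for Postn, 6.44 for Spp1, 4.50 for Tnc, 3.83 for Thbs1, 3.68 for Thbs2 and 1.01 for Sparc. In the 9 rats scanned on different days they were 4.56, 4.42, 3.38, 3.14, 3.44 and 1.24 in the same order. A limma fit with scan day as a term rests its tissue difference on those 2 rats. It kept the direction of all 8 genes, and adjusted p rose to between 0.085 and 0.42, so that no member was called. That fit called none of the 19167 symbols higher (0%). At an unadjusted p below 0.05 and 2-fold that fit held 5 of the 8, against 6.21% of all symbols.

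**Figure D2:**
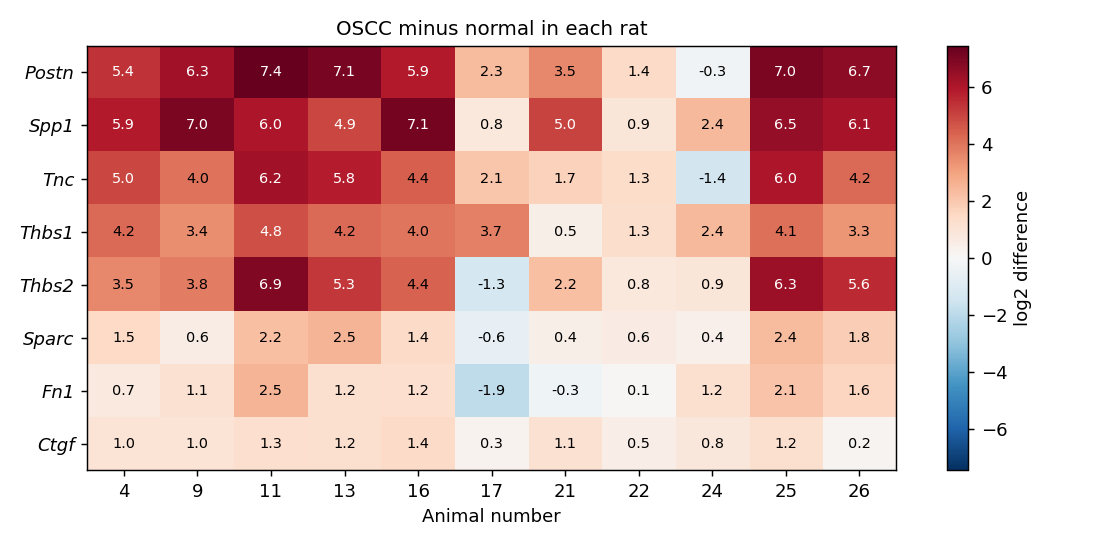
Log2 difference, OSCC minus normal, of the 8 genes (rows) in each of 11 rats (columns, animal number); red is higher and blue lower in OSCC. Differences reach 7.43 for Postn in animal 11 and fall to -1.87 for Fn1 in animal 17.

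The rats differed widely, and they did so for several genes together. The median difference over the 8 genes was 5.41 in animal 11, 5.06 in animal 25 and 4.57 in animal 13. It was 4.18, 3.89, 3.74 and 3.62 in animals 16, 4, 26 and 9. Animals 21, 24, 22 and 17 had medians of 1.43, 0.86, 0.82 and 0.52. All 8 genes were at least 2-fold higher in the OSCC of animals 11, 13, 16 and 25. In animals 17, 22 and 24 it was 3 of 8. Of the 8 genes, 7 had a difference among their 4 lowest in animal 17, 6 in animal 21, 7 in animal 22 and 7 in animal 24. For Postn, Tnc and Thbs2 these were the 4 lowest rats. In animal 22 all 8 differences lay between 0.09 and 1.42. Single genes departed from this order. Animal 17 had a Thbs1 difference of 3.74 beside differences below 0 in Thbs2, Sparc and Fn1, animal 21 had 5.03 for Spp1 beside 0.46 for Thbs1, and animal 24 was higher in Fn1 by 1.18 while Postn and Tnc were lower.

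Correlations of these differences over rats were computed for all 28 gene pairs, with Benjamini-Hochberg adjustment over the 28. Where the ordered differences of a gene were split by a gap of over 30% of their range, rats on the smaller side were left out, which leaves 7 to 11 rats a pair. Pearson's r had an adjusted permutation p below 0.05 in 11 pairs, and Spearman's rho as well in 8 of them. The highest was Postn with Tnc (r = 0.93, adjusted permutation p = 0.0043, rho = 0.87, adjusted p = 0.019, n = 10 without animal 24), and without the 2 rats farthest from the median r was 0.89. Postn with Thbs2 gave r = 0.89 over all 11 rats (adjusted permutation p = 0.0043, rho = 0.93, adjusted p = 0.0036). Thbs2 with Sparc gave r = 0.88 (adjusted permutation p = 0.0068, rho = 0.79, adjusted p = 0.030, n = 10 without animal 17). Within the rats scanned on different days these 3 values were 0.95, 0.90 and 0.93. The 11 pairs also held Tnc with Fn1 (0.86), Tnc with Thbs1 (0.83), Thbs1 with Fn1 (0.82), Thbs2 with Fn1 (0.80) and Thbs1 with Sparc (0.77). Of these, rho passed as well for Tnc with Thbs1 and Thbs2 with Fn1.

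For Spp1 the result depended on which rats entered. Among the 8 rats left for Spp1 (without animals 17, 22 and 24), its r with the others was between -0.13 and 0.41, and none had an adjusted p below 0.05. Over all 11 rats Spp1 gave r = 0.84 with Thbs2, 0.83 with Postn, 0.71 with Tnc, 0.69 with Fn1 and 0.65 with Sparc, so these values rest on the 3 rats left out. For Postn and Thbs2 those 3 rats stayed in, since their widest gaps were 23.5% and 25.1% of the range against 40.1% for Spp1. For Ctgf, whose gap of 30.01% was at the limit, r lay between 0.23 and 0.67 over 7 or 8 rats with no adjusted p below 0.05, and between 0.26 and 0.61 over all 11. Whether Spp1 or Ctgf differ from the other genes in this was not tested.

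**Figure D3:**
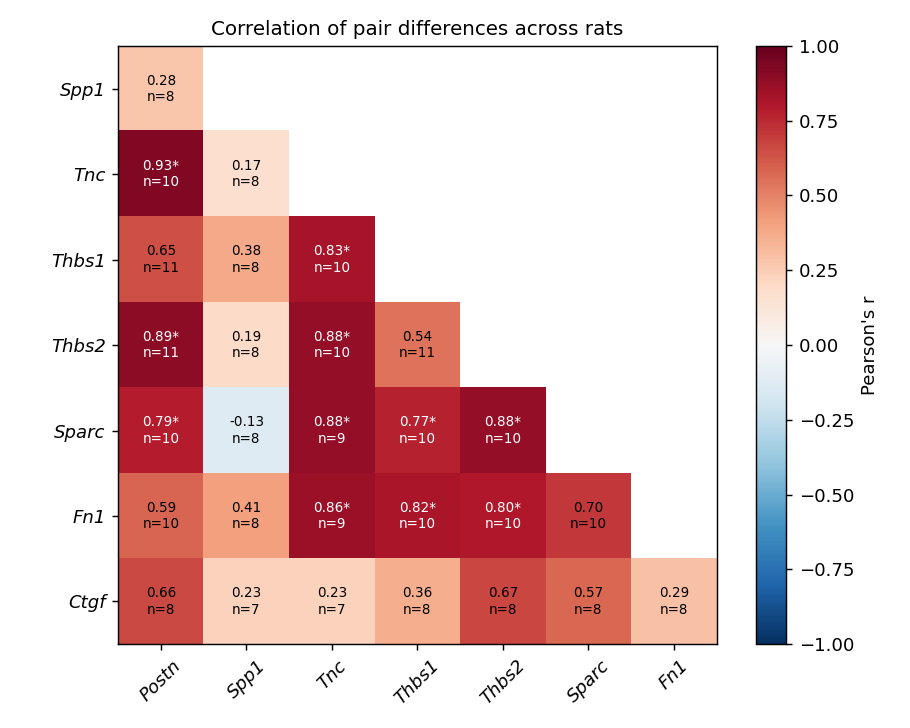
Pearson's r between the pair differences of 2 genes over rats, with the number of rats (n) under each value; an asterisk marks a Benjamini-Hochberg adjusted permutation p below 0.05 over 28 gene pairs. Pairs among Postn, Tnc, Thbs2 and Sparc run from 0.79 to 0.93. Tnc with Fn1 (0.86), Tnc with Thbs1 (0.83), Thbs1 with Fn1 (0.82) and Thbs2 with Fn1 (0.80) lie in the same range. Values with Spp1, over 7 or 8 rats, reach 0.41.

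Markers of several other cell types moved with the tissue as well. The counts of each list stand beside 7.48% of all symbols called higher and 7.24% called lower. Among 8 macrophage markers 7 were called higher, among them Itgam by 2.13 and Cd14 by 2.11. Msr1, which no normal array had well above background, was at least 1.28-fold higher (measured difference 2.43, with normexp 0.62). Cd163 did not pass (0.36, adjusted p = 0.24). Their summed signal was 2.53 to 5.95 in normal tissue and 6.48 to 27.3 in OSCC, higher in 11 of 11 rats. Of 7 fibroblast markers 3 were higher, namely Lum by 1.67, Fap by 1.29 and Dcn by 1.16, and the sum was higher in the OSCC of 10 rats, at 15.9 to 34.5 in normal tissue and 22.8 to 102 in OSCC. None of the 5 smooth muscle and myofibroblast markers was called higher, and Myh11, the smooth muscle myosin, fell by 1.36. All 6 endothelial markers stayed uncalled. Of 7 skeletal muscle genes Ckm, Tnnt3 and Mylpf fell by 2.19, 1.89 and 1.66, and Myh2 rose by 2.17. Acta1 (-1.09), Myh1 (-0.74) and Actn3 (1.80, single rats from -4.70 to 8.83) were not called, so the list did not move as one. All 4 serous gland markers were higher. Vegp1, Vegp2 and Lipf rose by 9.69, 9.41 and 8.73, and by 6.88, 7.35 and 6.54 with normexp. They were well above background on only 2, 4 and 3 of 11 normal arrays, so that these sizes are uncertain. Aqp5, which no normal array had well above background, was at least 7.49-fold higher (with normexp 2.61, below that limit). Of 4 measured platelet markers the chemokines Pf4 and Ppbp rose by 1.49 and 4.31, while Gp1ba and Gp9 were at background on all arrays. The size for Ppbp is uncertain too, since only 1 of 11 normal arrays had it well above background. Single rats ran from -5.25 to 9.55, and normexp gave 2.44. None of the 4 proliferation markers was called.

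The size of the change in several members was correlated with marker lists over rats, positively with fibroblast and macrophage and negatively with skeletal muscle markers. Among 72 relations of the 8 genes to 9 marker lists, each taken as its mean log2 difference, 70 had enough rats to test and 10 had an adjusted p below 0.05 for r. Thbs2 followed the fibroblast list with r = 0.91 (adjusted permutation p = 0.0042, rho = 0.95, adjusted p = 0.0028, n = 11; 0.79 without the 2 farthest rats, 0.91 within different-day rats). Fn1 followed the macrophage list with r = 0.94 (adjusted permutation p = 0.0042, rho = 0.82, adjusted p = 0.038, n = 10 without animal 17; 0.86 and 0.94). Each also followed the other list. Thbs2 gave r = 0.87 with macrophage and Fn1 0.92 with fibroblast markers (adjusted permutation p = 0.0057 for both). Over 10 rats each, Tnc gave 0.85 and 0.91 with fibroblast and macrophage markers (adjusted permutation p = 0.012 and 0.0057). Sparc gave 0.84 and 0.78 (adjusted permutation p = 0.019 and 0.047), and with macrophage markers its rho did not pass (adjusted p = 0.14). Postn and Thbs2 went against the skeletal muscle list, with r = -0.80 (exact permutation, adjusted p = 0.0057, rho = -0.93, adjusted p = 0.026) and r = -0.82 (exact permutation, adjusted p = 0.0057, rho = -0.95, adjusted p = 0.018) over the 8 rats left without animals 21, 22 and 24. Without the 2 farthest rats these were -0.94 and -0.96, and within different-day rats -0.91 and -0.91. For Spp1 r was 0.20 with fibroblast and 0.33 with macrophage markers over 8 rats. Animals 17, 22 and 24, which had its lowest differences, were left out there. Ctgf gave 0.33 and 0.27 over 8 rats, without animals 17, 22 and 26. None of these had an adjusted p below 0.05. Leaving out the 2 farthest rats as well gave 0.60 and 0.72 for Spp1 and 0.59 and 0.46 for Ctgf, over 6 rats. The part that cell composition has in the differences was not tested.

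Among 21 further matricellular genes, 5 rose and 2 fell by the same criteria, beside 7.48% and 7.24% of all symbols. The median difference of the 21 genes was -0.03, beside -0.21 for all symbols. With normexp 5 of the list were called, and Ibsp (0.73) and Spock2 (-0.62) were then under 2-fold. Tnn, which encodes tenascin-N, was well above background on 8 OSCC arrays and no normal one, at least 9.62-fold higher (measured difference 4.59, SE 0.89, adjusted p = 0.0022). Its normexp difference of 2.61 lay below that limit. The second Tnn probe, which no normal array had well above background, differed by 3.09 and was at least 2.85-fold higher. Wisp1, a CCN family gene like Ctgf, rose by 2.27 (SE 0.58). Ibsp, the bone sialoprotein related to osteopontin, rose by 1.85 (SE 0.42) and stood well above background in the OSCC of 9 rats and the normal tissue of 1. Thbs4 ran from 2.19 to 3.23 in normal tissue and from 3.35 to 5.35 in OSCC, with no overlap, and rose by 1.79 (SE 0.17, adjusted p = 7.4e-05). Fstl1, a SPARC-related glycoprotein, rose by 1.22 (SE 0.27), and its second probe gave 0.76.

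The genes that fell were Tnxb and Spock2. Tnxb, the tenascin of elastic connective tissue, was lower in the OSCC of all 11 rats, by 2.23 (SE 0.31, adjusted p = 0.00041), opposite to Tnc and Tnn. Spock2, a proteoglycan with a SPARC-like domain, fell by 1.65 (SE 0.47). Tgfbi, the nearest relative of periostin, had a difference of -0.07 (SE 0.22, adjusted p = 0.80), and its sign depended on the scaling, from -0.27 to 0.08. The remaining genes of the list included 4 at background on all 22 arrays.

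**Figure D4:**
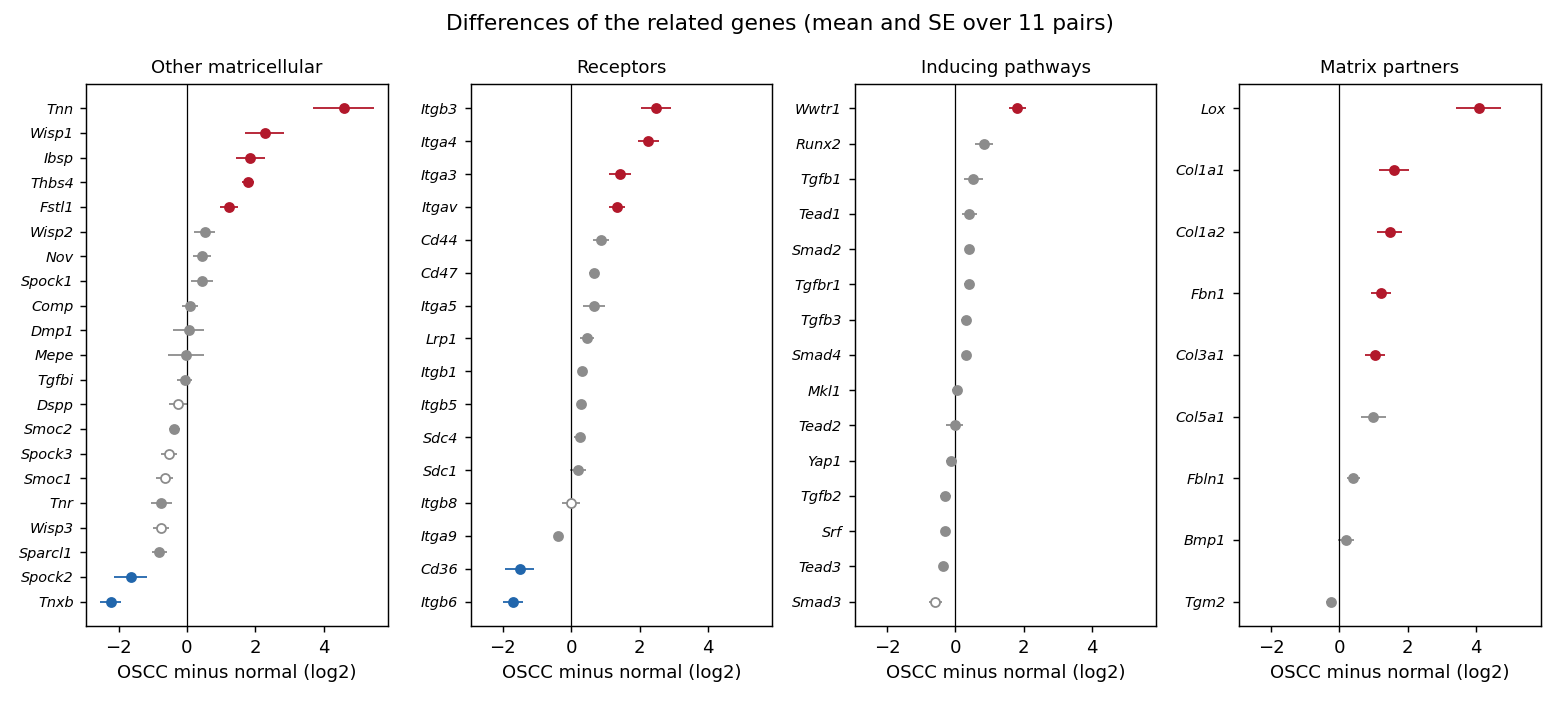
OSCC minus normal log2 difference with SE over 11 pairs for genes of 4 lists; red was called higher, blue lower and grey not called, and open circles mark probes at background on all arrays. Tnn at 4.59 and Lox at 4.07 lie farthest to the right, and Tnxb at -2.23 farthest to the left. Tnn and Lox were well above background on 0 and 4 normal arrays.

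Among 16 receptors, 4 were called higher and 2 lower (median 0.39, or 0.30 with dim genes at their limit), beside 7.48% and 7.24% of all symbols. The integrin subunits Itgb3, Itga4, Itga3 and Itgav were higher, with measured differences of 2.48, 2.26, 1.43 and 1.34, which were 0.66, 0.545, 0.19 and 0.61 with normexp and thus under 2-fold. Itgav and Itgb3 form the receptor that binds osteopontin, periostin and other members. Itgb3 was at least 1.76-fold and Itga4 at least 1.28-fold higher, since no normal array had either well above background, and Itga3 gave no limit above 1. The normexp difference of Itgb3 lay below its limit. Itgb6, the epithelial integrin subunit that pairs with Itgav, was lower in all 11 rats, by 1.70 (SE 0.29, adjusted p = 0.0010). Cd36, the thrombospondin receptor, fell by 1.51 (SE 0.41), lower in 9 of 11 rats. Cd44, the osteopontin and hyaluronan receptor, gave 0.86 (adjusted p = 0.014) on its brightest probe, under 2-fold, and 1.25 to 1.39 on 3 dimmer probes. Likewise Itgb1 gave 0.33 and 1.05 on 2 probes.

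Of 15 genes of the inducing pathways, 1 was called, beside 7.48% of all symbols called higher and 7.24% lower. Wwtr1, which encodes TAZ, ran from -2.61 to 0.12 in normal tissue and from -1.03 to 0.90 in OSCC, and rose by 1.82 (SE 0.25, adjusted p = 0.00039) in 11 of 11 rats. Yap1, which encodes the related coactivator YAP, gave -0.11 (SE 0.16, adjusted p = 0.58). Tgfb1 gave 0.53 (adjusted p = 0.12) and Tgfb3 0.31 (adjusted p = 0.089). Among 9 matrix partners 5 were higher and none lower, beside the same shares. Lox, the collagen cross-linking lysyl oxidase that periostin helps to activate, rose by 4.07 (SE 0.65, adjusted p = 0.00079) in all 11 rats. It was well above background on only 4 of 11 normal arrays and rose by 2.36 with normexp, so that its size is uncertain. Col1a1, Col1a2, Fbn1 and Col3a1 rose by 1.60, 1.47, 1.22 and 1.04. Bmp1 gave 0.20 on its bright and 1.29 on its dim probe.

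The genes whose pair differences were most like those of each member were sought among 11640 other genes that were well above background on at least 11 of the 22 arrays. These r values over 11 rats are the highest of that many and carry no test. For Postn they were Hif1a (0.98), RT1-DMa (0.98) and Tnfaip8 (0.98), and for Tnc Nudt1 (0.98) and Mmp3 (0.98). Thbs2 was most like Lst1 (0.99), Lsp1 (0.99) and Ampd2 (0.99), and Fn1 like Nckap1l (0.98), Dab2 (0.97) and Cfp (0.96). Lst1, Lsp1 and Nckap1l are known as leukocyte genes. Sparc was most like Col5a2 (0.98), Olfml3 (0.97) and C1qtnf6 (0.97), of which Col5a2 encodes a fibrillar collagen chain. Spp1 was most like Arl5c (0.97), LOC363326 (0.95) and Cst7 (0.93), and Thbs1 like Ctps2 (0.98), Plcb1 (0.95) and Kcnk13 (0.94). Ctgf had lower values, with Thbs4 (0.89), Il18bp (0.83) and Tifab (0.83), the first a thrombospondin from the list above.

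The RefSeq promoter table, in assembly GRCr8, held 7 of the 9 genes, without Thbs2 and Fn1. The 250 bases before the annotated start were searched on both strands for the TATA box letters TATAAA, the TEAD motif CATTCC, the AP-1 motif TGACTCA (which reads TGAGTCA on the other strand), the SMAD-like CAGACA, the RUNX motif ACCACA and the CArG box. TATAAA was found in Postn, Spp1, Tnc, Ctgf and Cyr61, 5 of 7, beside 12.9% of 33465 promoters. CATTCC was found in Thbs1, Sparc, Ctgf and Cyr61, 4 of 7, beside 12.1%. CAGACA was in Tnc, Sparc and Cyr61 (17.2% of promoters) and ACCACA in Sparc (14.5%). TGACTCA (4.05%) and the CArG box (1.50%) had no match. The promoters of the 3 called genes with the letters TATAAA and of Ctgf, which has CATTCC 3 times, are printed with matches to the searched motifs in capitals. They are read on the gene's own strand, so that GGAATG is CATTCC on the other one and TGTCTG is CAGACA.
Postn, chr2:140677811-140678060, plus strand: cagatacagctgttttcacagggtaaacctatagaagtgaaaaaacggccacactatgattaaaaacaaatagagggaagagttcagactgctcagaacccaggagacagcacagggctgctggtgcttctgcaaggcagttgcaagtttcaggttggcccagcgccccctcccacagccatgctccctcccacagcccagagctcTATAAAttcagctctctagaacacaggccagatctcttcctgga
Spp1, chr14:5619805-5620054, minus strand: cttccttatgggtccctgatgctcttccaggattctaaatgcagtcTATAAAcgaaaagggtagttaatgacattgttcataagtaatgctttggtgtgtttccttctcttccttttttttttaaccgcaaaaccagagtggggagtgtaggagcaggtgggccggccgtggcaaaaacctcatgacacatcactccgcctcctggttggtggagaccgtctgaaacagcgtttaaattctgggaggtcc
Tnc, chr5:82476132-82476381, minus strand: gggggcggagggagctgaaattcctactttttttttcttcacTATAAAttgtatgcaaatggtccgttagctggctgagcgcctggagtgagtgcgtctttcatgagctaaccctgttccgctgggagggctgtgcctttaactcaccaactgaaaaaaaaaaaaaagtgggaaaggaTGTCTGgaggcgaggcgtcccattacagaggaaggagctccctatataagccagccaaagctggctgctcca
Ctgf, chr1:22624615-22624864, minus strand: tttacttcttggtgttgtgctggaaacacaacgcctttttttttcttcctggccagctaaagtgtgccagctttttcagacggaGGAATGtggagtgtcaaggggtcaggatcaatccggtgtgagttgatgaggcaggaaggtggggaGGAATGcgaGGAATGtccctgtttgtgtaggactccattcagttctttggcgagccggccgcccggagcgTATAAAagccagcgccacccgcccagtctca
In Ctgf the matches to CATTCC began 166, 101 and 92 bases before the start, and 0.0807% of all promoters held 3 or more. TATAAA began 31 bases before the start in Ctgf and 44 before it in Postn, and 204 and 208 before it in Spp1 and Tnc. These matches are letters in a window and say nothing of what binds there.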

How the data were processed

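The authors hybridized each RNA to a one-color Agilent array and read it with Feature Extraction, per the file headers version 9.5.3.1. The deposited intensity values are its processed signal, background-subtracted within the array. The authors also deposited the same intensity scaled to the array's 75th percentile, used as an alternative. Here 9196 outlier spots and all controls were left out, the log2 spots of a probe were averaged over 42877 spots for 30367 probes, and the array's 75th percentile was subtracted. The tissues were compared by limma 3.58.1 (R 4.3.3). The model held a term for the rat and one for the tissue, and p-values were adjusted after Benjamini-Hochberg over every probe. The script was tested on simulated data. Pairing comes from the rat that gave both tissues. Deviations of same-rat arrays from the tissue means correlated between -0.21 and 0.24, with a median of -0.02. Correlations used 100000 permutations, or all permutations under 10 rats, two-sided. A probe was well above background on an array where a share of at least 0.5 of its spots was marked so. Folds against a group with no such array used the higher of the probe's signal and the lowest well-above-background signal. Such limits hold for the background subtraction of the processed signal. The normexp differences of Thbs1, Tnn, Aqp5 and Itgb3 lay below them. Precision is limited by the number of arrays.

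The members, gene lists and tests were chosen with earlier results of these data known. The genes named are all members with every probe, the called genes of each list (for lists with over 6 called, the 3 largest rises and falls) and the 3 genes most like each member, of which 1 is not reported here. Other genes (uncalled relatives and receptors, and uncalled markers) were named after their values were seen. The gap rule for correlations and the relations to marker lists were added after the data were seen. Alternatives changed the scaling, background correction, filters, terms, probes and pairs.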

Additional observations from a re-analysis of the deposited data

How the results depend on the processing

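No member changed direction under any alternative run. With scan day as a term the number of members called fell from 6 to 0, and that of genes called in the other lists from 40 to 0. The share of all 19167 symbols called higher fell likewise, from 7.48% to 0%. Leaving out 1 rat at a time gave 6 to 7 members called and a median difference of 3.13 to 3.61 log2 units. The fit without the replicate block of the rat called the same number, 6, with a median difference of 3.38. Calls moved in Fn1, Thbs1 and Sparc beside the scan day. Fn1 was called after quantile normalization (1.01, adjusted p = 0.048), without animal 17, without animals 21, 22 and 24 (1.08, adjusted p = 0.041), on its second probe and as the mean over probes (1.45, adjusted p = 0.0053). With normexp the median difference was 1.98, the lowest of the alternatives. Thbs1 lost the 2-fold size, and Sparc the adjusted p, with normexp, which left 4 members called, and Sparc lost the size at the array median. Thbs1 was not tested where dim probes were left out, which gave 5. With slide as a random block, 6 members were called. No slide carried both tissues, so that fit cannot take out a slide shift that goes with the tissue. Over the scalings the median of all probes moved from -0.44 to -0.03. The number of gene pairs with an adjusted p below 0.05 was 11, and 15 after quantile normalization. Of the lists, the other matricellular genes had 7 called, 5 with normexp and 5 without dim probes, receptors 6, 2 with normexp and 3 without dim probes, matrix partners 5 and 3 with normexp, platelet markers 2 and 1 without dim probes, and epithelial markers 0 and 1 at the array median. The causes were not tested.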
